A study of Alternanthera philoxeroides with 2 samples.

Results

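In roots of alligator weed (Alternanthera philoxeroides), a set of 140 was drawn from 64763 assembled transcripts. The 140 combined high abundance with a level at least 3-fold higher under potassium deprivation, within limits on GC content, ID and cluster. These were chosen by their measured values: at least 1000 fragments over both libraries, and an FPKM (fragments per kilobase of transcript and M fragments) in the low-potassium library at least 3 times that of the control. A GC content from 35% to under 50% was also required, as was an ID that is either a contig of a numbered cluster or a single unigene (an assembled transcript outside any cluster) numbered up to 19950. Contigs of clusters that held strongly opposed contigs were left out. The ratio between the libraries is therefore part of the choice, and it is described below without a test.

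Shoots collected from a field were kept in hydroponic solution for 10 days. Control plants then stayed in normal solution for 7 days, and the low-potassium plants spent those 7 days in a solution that lacked potassium sulfate, so sulfate supply and the move itself cannot be told apart from potassium supply. Total RNA was taken from roots, and there was 1 library per condition, with 18.9 M control and 16.2 M low-potassium fragments. The labels do not say how many plants went into a library. Each difference is one between 2 libraries with no replicate check, and each interval is an exact 95% interval of counting error alone. In bulk roots, more cells of a type and more RNA per cell cannot be told apart.

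Potassium is the main inorganic cation of plant cells, and roots take it up through inward channels and high-affinity carriers. In Arabidopsis, roots short of potassium raise transcripts of the high-affinity carrier HAK5, and ethylene and reactive oxygen take part in the response. The files give unigenes by ID, with no gene names, so none of the 140 could be assigned to these or other functions, and the root identity of the samples could not be checked against marker genes. The working description of the set as plant-like rests on GC content and ID number alone, since nothing in the files names the organism a unigene comes from. No sequence is printed because the files hold none.

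Of the 64763 unigenes, 5065 had 1000 fragments or more, and 183 of these (3.61%) reached a ratio of 3. GC content removed 35 of the 183, with 19 under 35% and 16 at 50% or more. The ID limit removed another 5, and opposed clusters the last 3. Without regard to the ratio, 4630 unigenes met the limits on abundance, GC content, ID and cluster, so the 140 were 3.02% of them. As a mirror, 58 of the 4630 had a ratio of 1/3 or less. The 3 left out for their clusters included CL6237.Contig6_All, with 20 control and 1930 low-potassium fragments, while the other 2 had ratios of 6.18 and 3.07.

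The 140 took up a small part of each library. They held 67246 control fragments, 0.355% of the library (0.352 to 0.358), and 279832 low-potassium fragments, 1.73% (1.72 to 1.73). Their summed share was 4.86-fold higher under low potassium (4.82 to 4.90), where a value of at least 3 follows from the choice. That interval does not cover the choice of totals. With totals that leave out the 2 most abundant unigenes, the shares were 0.489% in the control and 1.93% under low potassium. The 58 mirror unigenes made up 1.85% of control fragments and 0.470% of those under low potassium. Among the 140, the 5 with the most fragments supplied 61735 of the low-potassium fragments, 0.381% of that library (0.378 to 0.384), so most of the summed share lay in the others.

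Per length, the raised unigenes were moderate in the control and high under low potassium. The rule used both levels, so the direction of the differences in this paragraph follows largely from the choice. The control FPKM of the 140 ran from 0.207 to 277 with a median of 18.9. Their low-potassium FPKM ran from 17.9 to 1274 with a median of 99.9. For the 4630 the medians were 37.1 FPKM in the control and 46.05 FPKM under low potassium. In the control 7 of the 140 exceeded 100 FPKM, and under low potassium 70 did. Among all unigenes ranked by FPKM, the 140 had a median rank of 6521 in the control and 1385 under low potassium. None was among the first 100 of the control library and 1 was among the first 100 of the low-potassium library, while 6 and 40 were among the first 1000. All 140 had fragments in both libraries, and the ranges of the levels in the libraries overlapped.

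**Figure D1:**
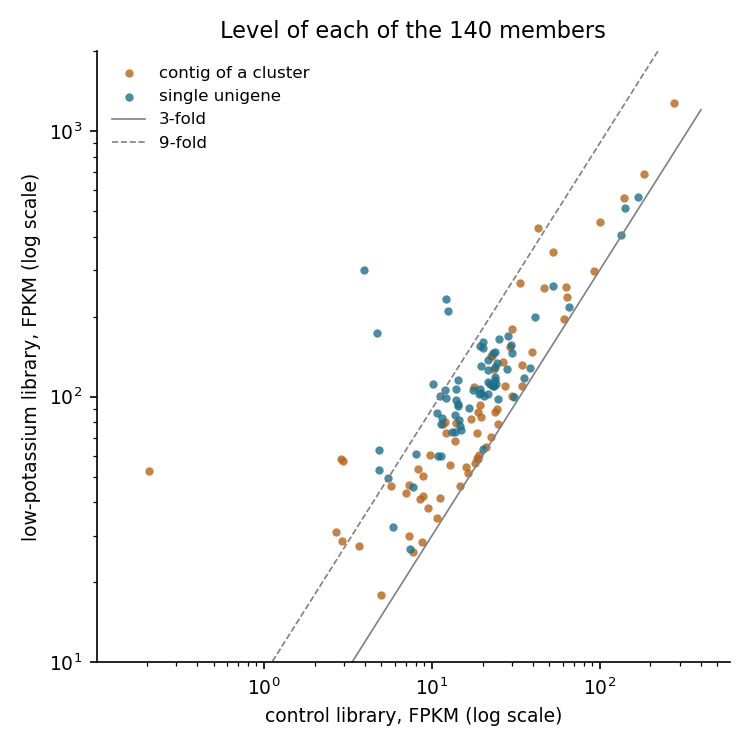
FPKM of each of the 140 raised unigenes in the control library (horizontal, log scale) and the low-potassium library (vertical, log scale), 1 point per unigene, coloured by whether the ID is a contig of a cluster or a single unigene. Points lie above the 3-fold line by the rule, most lie between the 3-fold and 9-fold lines, and 1 point stands far to the left at a control FPKM of 0.207.

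The unigenes with the highest low-potassium FPKM were mostly 3 to 5 times their control level. CL4185.Contig1_All (1262 bases) had 6623 control and 26076 low-potassium fragments, or 277 and 1274 FPKM. Its ratio was 4.60 (4.48 to 4.72), and it ranked 293 in the control and 56 under low potassium. CL4185.Contig4_All (429 bases) had 1482 and 4798 fragments, or 182 and 690 FPKM, a ratio of 3.78 (3.57 to 4.010). These were the 2 most abundant of the set by low-potassium FPKM, and both belong to 1 cluster.

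Next by level, Unigene2831_All (373 bases) went from 169 FPKM in the control to 563 FPKM under low potassium, on 1194 and 3405 fragments. CL598.Contig6_All (470 bases) went from 139 to 561 FPKM, on 1241 and 4273 fragments. Unigene13379_All (580 bases) went from 140 to 511 FPKM, on 1540 and 4809 fragments. All 3 were thus already above 100 FPKM in supplied roots, and their ratios were 3.33, 4.02 and 3.65. CL9359.Contig1_All had 100 and 452 FPKM, a ratio of 4.503. Unigene11274_All, at 134 and 407 FPKM on 2800 and 7289 fragments, had the lowest ratio of the 140, at 3.04 (2.91 to 3.18). Among these leading unigenes CL6315.Contig1_All (497 bases) stood apart, since it went from 42.5 to 432 FPKM on 400 and 3483 fragments, a ratio of 10.2 (9.17 to 11.3).

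The largest ratios belonged to unigenes that were scarce in the control, which follows in part from the control level being the divisor. CL7189.Contig4_All (1782 bases, 44.6% GC) had 7 control and 1518 low-potassium fragments, or 0.207 and 52.5 FPKM. Its ratio was 253, with a counting interval from 123 to 631 that is wide because of the 7 control fragments. The control fragments covered 37.99% of its length and the low-potassium fragments 99.9%. Unigene10239_All (1216 bases) had 91 and 5918 fragments, or 3.95 and 300 FPKM, a ratio of 75.9 (61.7 to 94.5). Unigene10356_All (1511 bases) had 134 and 4266 fragments, or 4.68 and 174 FPKM, a ratio of 37.2 (31.3 to 44.5). Both single unigenes lay at 40.5% and 40.6% GC, near the median of the 4630, and no read with several hits was placed on either.

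Below these came 4 unigenes between 16 and 21 times their control level. CL7463.Contig1_All had 64 control and 1109 low-potassium fragments, CL8731.Contig1_All 71 and 1181, and Unigene16704_All 65 and 1074. Their ratios were 20.2, 19.4 and 19.3, with intervals that overlap, so their order is not resolved by counting. Unigene19753_All had 142 and 2057 fragments, a ratio of 16.9 (14.3 to 20.2). Unigene3351_All followed with 87 and 969 fragments, a ratio of 13.0 (10.4 to 16.4). Of the 5 lowest control levels, 2 more belonged to long contigs. CL2619.Contig4_All (2819 bases) had 2.70 and 31.0 FPKM, and CL9886.Contig1_All (2190 bases) had 2.92 and 28.7 FPKM, with ratios of 11.5 and 9.82. In all, 14 of the 140 had ratios of 9 or more, and 7 of 16 or more.

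At the limits, the unigenes just inside and just outside were alike. Above the ratio of 3 lay Unigene11274_All at 3.04, CL8476.Contig1_All at 3.06, CL598.Contig5_All at 3.11 and CL10328.Contig1_All at 3.12. Just below it lay CL1694.Contig8_All at 2.99, Unigene542_All and CL1694.Contig7_All at 2.94 and CL117.Contig1_All at 2.93. The counting intervals of these 8 all include 3. At the fragment limit, CL7289.Contig1_All and CL7316.Contig1_All were inside with 1015 and 1035 fragments, and Unigene3795_All and Unigene7373_All outside with 996 and 984. The whole interval lay at or above 3 for 123 of the 140, and at or above 2 for all 140.

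A second count of the same libraries gave like ratios. By uniquely mapped reads all 140 again had ratios of 3 or more, with a median of 5.46 against 5.28 by fragments. No read with several hits was placed on 103 of the 140, so for these both counts rest on much the same reads. The 2 counting intervals met for 139 of the 140. In the authors' deposited table the FDR of the 140 was at most 6.2e-73 and every log2 ratio was positive, from 1.60 to 7.99. With 1 library per condition, that FDR says nothing of the spread between plants. The log2 ratios compare the same levels as the rule, so their sign follows from the choice.

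**Figure D2:**
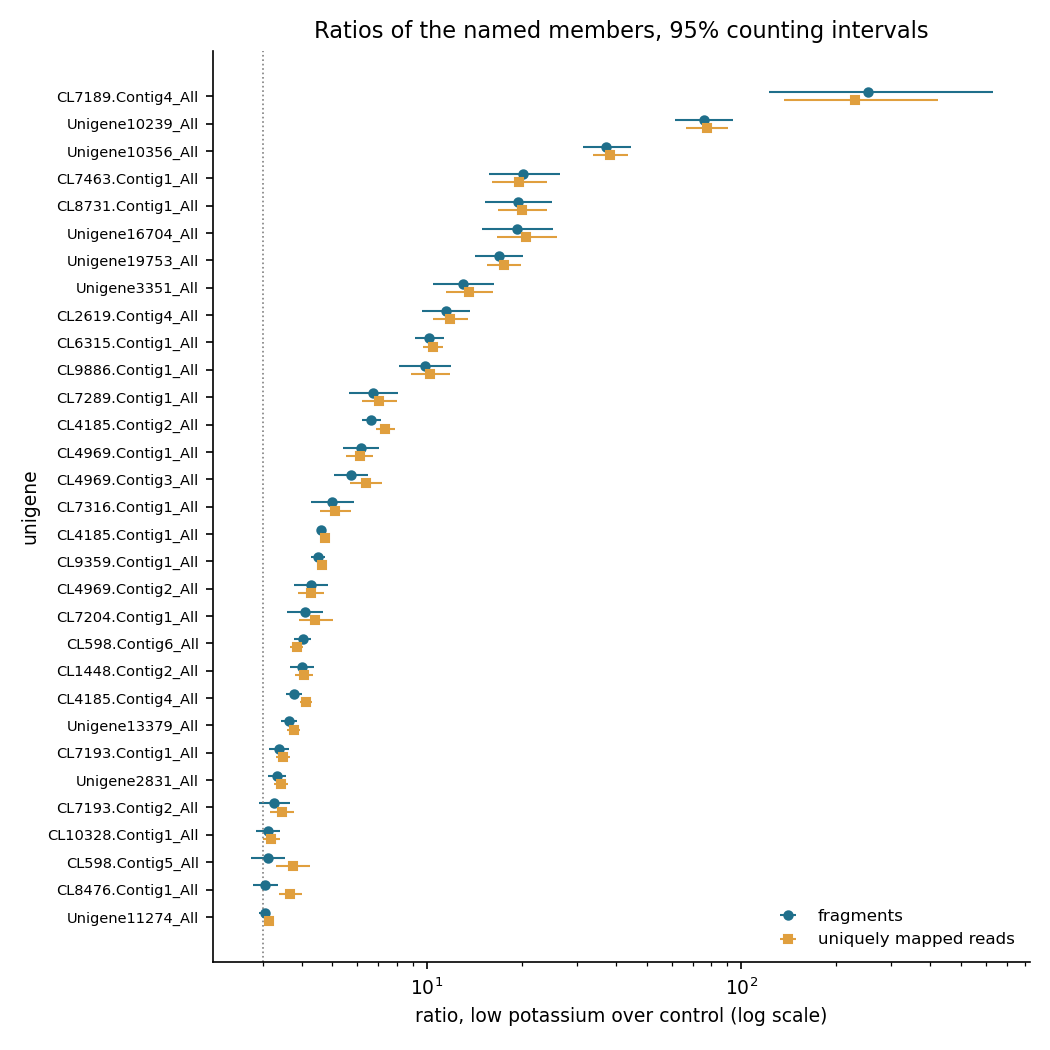
Ratio of low potassium over control (log scale) with exact 95% counting intervals for the 31 named raised unigenes, by fragments (circles) and by uniquely mapped reads (squares), with the limit of 3 as a dotted line. Ratios run from 3.04 to 253 by fragments and from 3.14 to 230 by unique reads, and the widest interval belongs to CL7189.Contig4_All with 7 control fragments.

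The scaling of the libraries sets the size of these ratios. TMM scaling, which centres the bulk of transcripts, added -0.40 to every log2 ratio, and the median of all unigenes with 20 fragments or more moved from 0.39 to -0.01. All 140 were still higher under low potassium, with a lowest ratio of 2.31 and a median of 4.02, and 106 of the 140 still reached 3. By library totals the median log2 ratio was 2.40 for the 140 and 0.35 for the 4630, a difference of 2.05. A gap in this direction follows from the choice of the 140 by their ratio.

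The 140 ratios did not form an even tail. Among the 4630 unigenes, numbers fell with each step of 0.25 on the log2 scale, from 129 at 2 to 2.38-fold and 84 at 2.38 to 2.83-fold, through 34 and 15, to 14 at 4 to 4.76-fold. They then rose to 34 at 4.76 to 5.66-fold and 25 at 5.66 to 6.73-fold, before dropping to 9. As a result, 83 of the 140 had ratios from 4.5 to under 9, against 43 from 3 to 4.5. The ends of these ranges were placed after the distribution was seen, and the counts are a description.

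**Figure D3:**
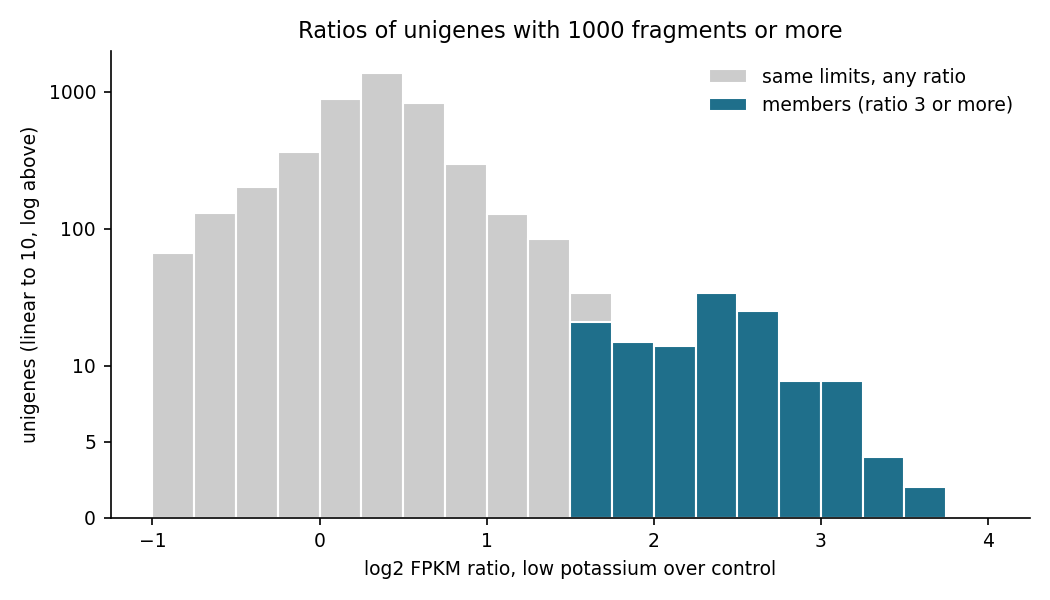
Number of unigenes (vertical, linear to 10 and logarithmic above) by log2 FPKM ratio of low potassium over control (horizontal, steps of 0.25) among the 4630 unigenes under the same limits on abundance, GC content, ID and cluster, with the 140 raised ones in blue. Numbers fall to 14 in the step that starts at a log2 ratio of 2 and rise again to 34 in the next, and 7 unigenes of 16-fold or more lie to the right of the axis.

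Unigenes in this middle range differed from those just above the limit in several features that the ratio does not fix. Their median length was 755 bases, their median GC content was 44.8%, and 65.1% of them were single unigenes. For the 43 with ratios from 3 to 4.5, the median length was 1105 bases, the median GC content was 40.6%, and 23.3% were single. For comparison, the 226 unigenes with ratios of 2 to 3 had 1336 bases, 40.96% GC and 23.5% single unigenes, and all 4630 had 1406 bases, 41.5% and 30.7%. On GC content, length and ID class, the 43 thus lay nearer to the bulk of abundant transcripts than the 83 did. No read with several hits was placed on 88.0% of the 83, on 44.2% of the 43 and on 42.7% of the 4630. The 14 with ratios of 9 or more had medians of 1180 bases and 42.2% GC, and 57.1% were single unigenes.

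Over all 140, the median GC content was 43.6%, with quartiles of 40.5% and 45.97%, and 53.6% of them had 43% GC or more against 28.3% of the 4630. The 58 mirror unigenes had a median of 40.9% GC and a share of 25.9%, so a shift to higher GC was not seen in that set. Their median length was 1196 bases against 924 for the 140. Single unigenes among the 140 were at a median of 44.7% GC and 761 bases, while contigs of clusters had 41.3% and 1122 bases. The shift in GC content therefore lay mainly in the single unigenes. Within 1000 to 3000 fragments the medians were 44.1% GC and 855 bases for 118 raised unigenes, and 41.5% and 1451 bases for 3313 under the same limits. At 3000 fragments or more the 22 raised unigenes had a median of 40.6% GC against 41.6% for all 1319 under the same limits, so the shift was not seen there.

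The share of abundant unigenes with a ratio of 3 or more was larger at higher GC content within the upper part of the range. From 42 to 43% GC 6 of 648 (0.926%) had a ratio of 3 or more, from 44 to 46% 29 of 520 (5.58%), from 46 to 48% 23 of 198 (11.6%) and from 48 to 50% 12 of 77 (15.6%). Beyond the limit, from 50 to 55% GC, it was 10 of 76 (13.2%). Ratios of 1/3 or less did not rise steadily with GC content. Their share was 2.30% from 35 to 38% GC and lay between 0.933% and 1.325% in the classes from 38 to 43%. It was 0.584% from 43 to 44%, 0.769% from 44 to 46% and 1.01% from 46 to 48%. Only above that was it larger, with 6 of 77 (7.79%) from 48 to 50% and 8 of 76 (10.5%) from 50 to 55%. At the low end, 3.69% were raised from 35 to 38% GC and 7.24% from 30 to 35%, which the rule leaves out. GC content can also bear on amplification and sequencing, and its part in these ratios was not tested.

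**Figure D4:**
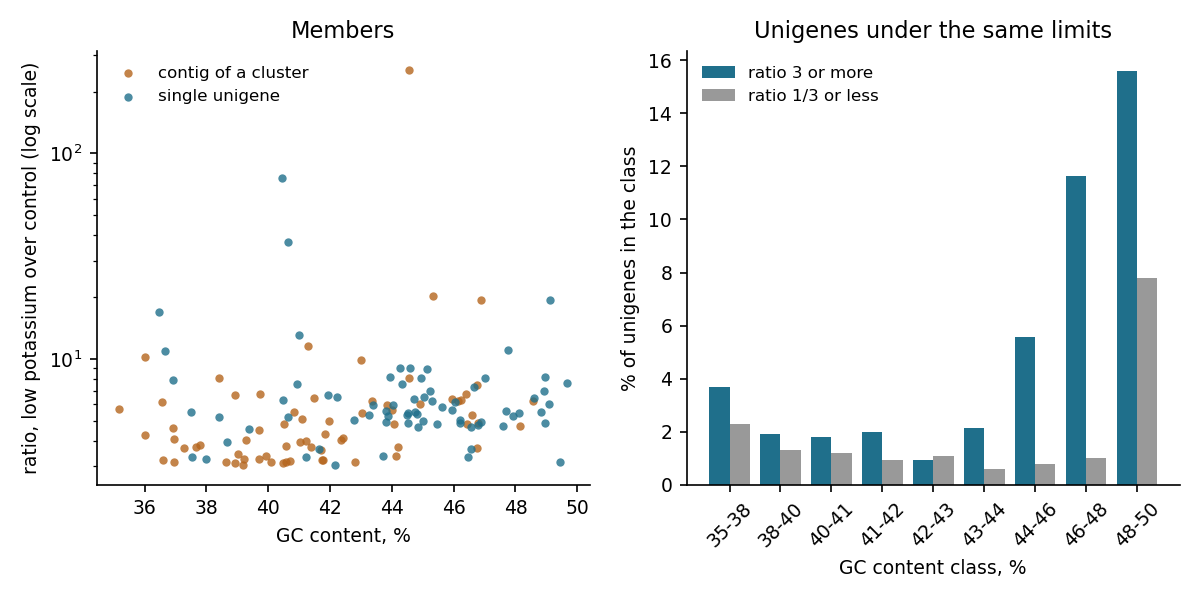
Left, ratio of low potassium over control (log scale) against GC content (%) for the 140 raised unigenes, coloured by ID class. Right, percent of the unigenes under the same limits in each GC class with a ratio of 3 or more (blue) or 1/3 or less (grey); the blue bars reach 11.6% and 15.6% in the upper 2 classes, while the grey bars stay at 2.30% or less except for 7.79% in the last.

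A higher GC content also went with these ratios in less abundant unigenes, which the rule did not pick. Among those with 300 to 999 fragments under the other limits, 235 of 7570 (3.10%) had a ratio of 3 or more, and with 100 to 299 fragments 451 of 10521 (4.29%). Of these, 84 and 173 had ratios from 4.5 to under 9, with a median GC content of 43.2% and 44.2% against 41.3% for all unigenes of either class. The middle range made up 35.7% and 38.4% of those with a ratio of 3 or more, against 64.4% at 1000 to 3000 fragments. At 3000 fragments or more it was 7 of 22 (31.8%), and at 20 to 99 fragments 155 of 651 (23.8%), so the larger share was seen in the class of 1000 to 3000 fragments and not in the class above it. Ratios of 3 to 4.5 were thus the more frequent in both less abundant classes, with 123 and 224 unigenes.

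The 140 comprised 72 single unigenes and 68 contigs of 62 clusters. Only 4 clusters held more than 1 of the 140. In cluster CL4969, 3 contigs of 840 to 1117 bases and 35.2% to 36.6% GC were raised. CL4969.Contig1_All had 17.7 and 109 FPKM, CL4969.Contig2_All 19.6 and 83.7 FPKM, and CL4969.Contig3_All 13.9 and 79.8 FPKM. Their ratios were 6.15, 4.27 and 5.72, and the interval of the second (3.79 to 4.83) did not meet those of the others. In CL7193 the 2 raised contigs had ratios of 3.38 and 3.27, with intervals that overlap. Of their placements, 23.7% and 50.7% came from reads with several hits.

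Cluster CL4185 held 3 raised contigs and 1 that was not. CL4185.Contig2_All (963 bases) had 962 and 5474 fragments, a ratio of 6.64 (6.20 to 7.12), beside 4.60 and 3.78 for the 2 contigs described above. CL4185.Contig3_All (231 bases) had 16406 and 17058 fragments, or 3751 and 4553 FPKM, a ratio of 1.21 (1.19 to 1.24). The most abundant contig of the cluster thus lay near the median ratio of the 4630 unigenes, 1.275, and 0.865% of its read placements came from reads with several hits. On Contig1 and Contig2, 83.9% and 97.9% of read placements came from reads with several hits, so the split of fragments between them is uncertain. By unique reads alone their ratios were 4.73 and 7.37.

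In CL598, CL598.Contig6_All carried no read with several hits. CL598.Contig5_All, with 340 and 906 fragments, drew 96.2% of its placements from such reads, and its ratio was 3.11 by fragments and 3.74 by unique reads. The other contigs of the cluster ranged from CL598.Contig3_All, with 3788 and 4494 fragments and a ratio of 1.39, to CL598.Contig1_All, with 186 and 719 fragments and a ratio of 4.51. Over the whole set, reads with several hits were more than 50% of placements for 9 of the 140 (6.43%), all contigs of clusters, against 19.0% of the 4630. On all 72 single unigenes among the 140 there were none, as on 79.6% of the 1422 single unigenes under the same limits.

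Other contigs of the 62 clusters were also mostly higher under low potassium. Of 81 such contigs with 20 fragments or more, in 43 clusters, 57 (70.4%) were higher by 2-fold or more and 0 were lower by as much. Over all 23655 contigs outside the set with 20 fragments or more, 12.4% were higher and 4.10% lower by that limit. The count of 0 is in part set by the rule, which leaves out clusters with a contig of 100 fragments or more at a ratio of 0.5 or less. Of the 20 contigs with 20 to 99 fragments, which that criterion does not reach, 17 were at least 2-fold higher and 0 lower. Over all 8375 contigs with as many fragments, 1550 (18.5%) were higher and 517 (6.17%) lower, so 0 of 20 says little about lower contigs. Reads shared between contigs of a cluster can carry a ratio from one to the other. Among the 31 other contigs with no read of several hits, 23 (74.2%) were at least 2-fold higher, against 16.4% of 7727 such contigs in all.

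Ratios of these other contigs were larger beside the members with larger ratios. Their median was 2.38 where the largest ratio in the set was under 4.5, and 3.31 where it was from 4.5 to 9. For the 11 contigs where that ratio was 9 or more, the median was 7.89. Most of these 11 belonged to clusters CL2619 and CL7189, so they are not independent, and the order was not tested. The value of 7.89 is that of CL2619.Contig3_All, with 65.1% of its placements from reads with several hits. Beside CL7189.Contig4_All, the other 3 contigs of its cluster had 126, 188 and 288 low-potassium fragments and 0 in the control. Against a floor of 3 fragments in the control library they were at least 49.0-fold, 73.2-fold and 112-fold higher, while the lower bounds of the 2-sided exact counting intervals are smaller, at 39.3, 58.9 and 90.6. At the other end, CL1694.Contig4_All, in a cluster of 11 contigs, had 75 and 35 fragments, a ratio of 0.545 (0.354 to 0.824). That cluster held CL1694.Contig2_All as its 1 member of the set, with ratios of its other contigs up to 4.05.

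**Figure D5:**
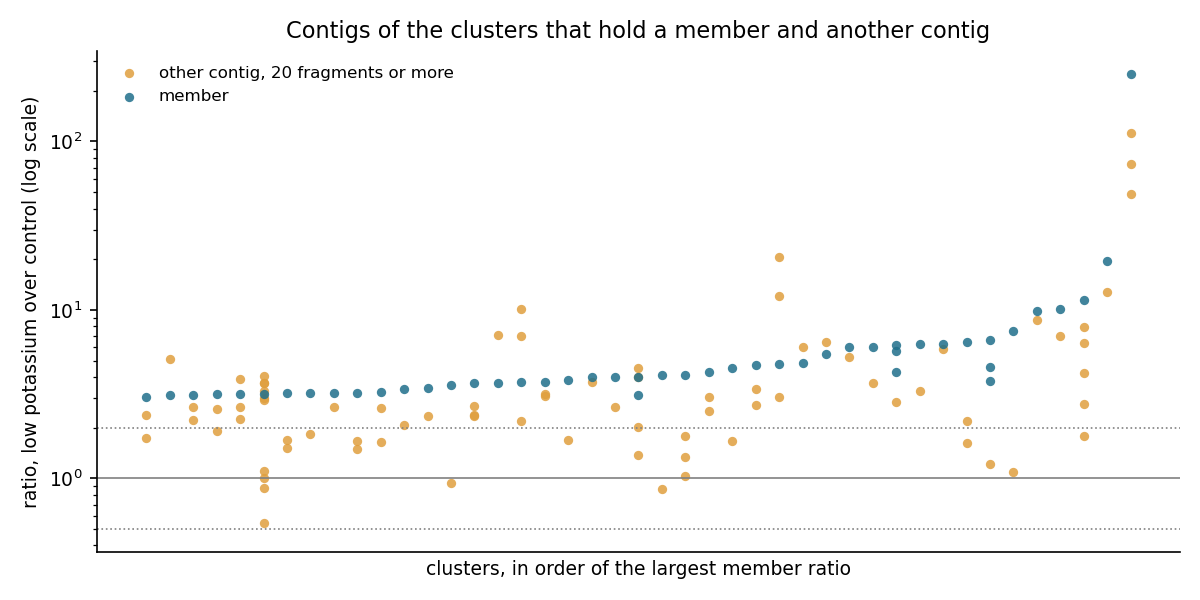
Ratio of low potassium over control (log scale) for each contig with 20 fragments or more in the 43 clusters that hold a raised contig (blue) and at least 1 other contig (orange), 1 column of points per cluster, with lines at ratios of 1 (solid), 2 and 0.5 (dotted). Of the 81 orange points 57 lie at or above 2 and none at or below 0.5; points of contigs without control fragments are drawn at their bound against a floor of 3 fragments.

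Reads covered nearly the whole length of most of the 140 in both libraries. Median covered length came to 98.6% in the control and 99.7% under low potassium, beside 99.3% and 99.5% for the 4630. Covered length was over 5 percentage points larger under low potassium for 20 of the 140 and larger by as much in the control for 0. In the 4630 the counts were 102 (2.20%) and 52 (1.12%), and in the 58 mirror unigenes 0 and 12. With a ratio of at least 3 the direction of this gap largely follows from the choice of members. After CL7189.Contig4_All the widest gap was that of CL10749.Contig2_All, chosen after its values were seen. Its 241 control fragments covered 61.4% of its 681 bases and its 969 low-potassium fragments 99.9%, and its ratio was 4.69 by fragments and 6.09 by unique reads. The longest of the set, CL1448.Contig2_All (3586 bases), was covered over 99.3% and 99.5% of its length, with 646 and 2213 fragments. The shortest, CL7204.Contig1_All (249 bases), had 298 and 1042 fragments and 97.2% and 99.2% covered.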

How the data were processed

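The authors deposited a table of raw fragment counts per unigene with FPKM values, and with a log2 ratio, p-value and FDR for each, per the file headers. They also deposited a coverage table per library with read counts (unique and multiple placements), the mean depth of coverage as a signal, and, in percent, the covered length and the GC content. Per the series title the transcriptome was characterized de novo. No assembler, aligner, counter or test is given in the sources used here. Each ratio divides the share of low-potassium fragments by that of control fragments, with exact 95% Clopper-Pearson intervals. Such intervals and the floor of 3 fragments cover counting error only, and without molecular identifiers the fragments are not independent molecules. With 1 library per condition no test was made. TMM and upper-quartile factors came from edgeR 4.0.16 (R 4.3.3), and the rest from Python 3.11.15 with scipy 1.17.1; the interval step was checked on simulated counts.

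The members were chosen with earlier results of these data known, as were the comparison sets. Members were named for the highest low-potassium FPKM (8), the highest lower bound of the ratio (8), the lowest control FPKM (5), nearness to a limit, extreme length, or sharing a cluster; other names were chosen after their values were seen. The planned gene lists need gene names and were not used.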

Additional observations from a re-analysis of the deposited data

How the results depend on the processing

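With scaling by TMM, median ratio or upper quartile, the number of raised unigenes was 106, 105 and 106. All 140 kept a ratio of 2 or more under each, which follows from 1 factor applied to ratios chosen at 3 or more. Their median ratio moved from 5.28 to 4.02, 4.003 and 4.006, and to 4.28 with totals that leave out the 2 most abundant unigenes. The number moved by over 1.5 times with a minimum of 500 fragments (241) or 2000 fragments (39) and with a ratio limit of 2 (366), which follows from the looser or stricter limit. The share held by the 140 was 0.400% in the control and 1.69% under low potassium by summed FPKM, 0.368% and 1.86% by unique reads, 0.489% and 1.93% with totals without the 2 most abundant unigenes, and 0.307% and 1.501% without CL4185, an alternative added after the data were seen. Of the other contigs 34 were higher at a 3-fold limit, and 1 was lower under the 3 scalings and under totals without the 2 most abundant unigenes. Of the 37 named ratios, 36 left their counting interval under each of the 3 scalings, 32 with totals without the 2 most abundant unigenes and 5 by unique reads. All 37 kept their direction, although a scaling multiplies every ratio by 1 factor and so tests this little. Medians of length and GC content differed between single unigenes and contigs, as given above. Depth limits most the ratios of unigenes with few control fragments. No paired analysis was possible because only 1 library stood for either condition.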

Other observations

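The ID numbers of the single unigenes were not spread evenly, a pattern seen in the data and described here without a test. Counted in blocks of 2000, numbers from 1200 to 1399 within a block held 41 of the 72 single unigenes in the raised set and 301 of the 1422 under the same limits (13.6% raised). The neighbouring numbers from 1400 to 1599 held 528 unigenes under the same limits, of which 11 (2.08%) were raised. The first 41 had a median ratio of 5.55, with quartiles of 5.03 and 6.56, and a median GC content of 44.9%. The 260 other unigenes in those numbers had a median ratio of 1.24 and 40.3% GC. The gap in ratio follows from the choice of the raised set. In numbers 1400 to 1599 the 11 raised unigenes had medians of 5.05 and 43.7% GC, and the 517 others 1.26 and 41.4%. Higher GC content in the raised unigenes was thus not particular to numbers 1200 to 1399.

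Unigenes with 43% GC or more made up 27.9% of the 301 in numbers 1200 to 1399 and 26.05% of the 1121 other single unigenes. At 43% GC or more, 32 of 84 unigenes (38.1%) in numbers 1200 to 1399 were raised. The same held for 19 of 292 other single unigenes (6.51%) and 24 of 933 contigs of clusters (2.57%). Under 43% GC the shares raised were 4.15% of 217, 1.45% of 829 and 1.93% of 2275. At 43% GC or more, ratios of 1/3 or less were found in 0 of the 84, 3 of the 292 and 12 of the 933, so the 0 says little. The order in which the assembly was numbered is not given in the sources used here.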
